A study of Oryctolagus cuniculus with 4 samples.

Results

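Cholesterol synthesis genes were examined in single-cell RNA sequencing libraries of rabbit ear hypertrophic scar (HS), a raised and collagen-rich scar. The genes were chosen by symbol, with earlier results of these data known. They were 7 in all, HMGCS1, FDFT1, SQLE, LSS, SC5D, DHCR7 and INSIG1. Rows were found for 6 of them among 13913 genes, and DHCR7, the enzyme of the last reduction to cholesterol, was not analysed here. All 6 passed the filter on low values, which left 9348 genes. None of the 7 serves cholesterol uptake, so uptake genes were taken from a separate list.

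The scars were raised on the ears of wild-type (WT) female rabbits by removing skin and perichondrium from the ventral side. The HS group (2 libraries) received no treatment. The drug-loaded MNs group (2 libraries) carried the same scars and was given drug-loaded microneedles once weekly for 3 weeks, whose detachable tips held a prodrug made from a derivative of 5-fluorouracil, an antimetabolite. Each library came from ventral epidermis and dermis of 1 tissue, and no library with drug-free needles was among them, so that drug and needle cannot be told apart. The study's supplement calls the 2 samples of a group biologically independent, whereas the labels do not say whether they came from separate rabbits, and p-values measure only the spread between these libraries.

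Cells build cholesterol from acetyl units. The mevalonate steps, with HMGCS1 near the start, give isoprenoid units that FDFT1 joins into squalene. SQLE oxidizes squalene and LSS folds it into lanosterol, the first sterol, and a further series of enzymes, among them SC5D and DHCR7, turns lanosterol into cholesterol. The transcription factor SREBP2 drives most of these genes when sterols are low, whereas INSIG1 holds the SREBP escort protein SCAP in the endoplasmic reticulum when sterols are plentiful, and INSIG1 is itself an SREBP target. In skin, keratinocytes make much of their own cholesterol and pass it to the lipid barrier of the cornified layer, and sebaceous glands are a further site of lipid synthesis.

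Values are relative expression, rescaled so that each library sums to 1000000, and 1 unit is 1 part of that total. Each library has 1 value per gene over its cells, and how the cells were combined and how doublets were treated was not given in the sources used here. In such values, fewer cells of a type and less RNA per cell cannot be told apart. Spearman's rho, computed over tested genes as a description, was 0.959 and 0.969 within the groups and 0.956 to 0.97 between them, so the libraries did not sort by group. Log2 fold changes are given as drug-loaded MNs minus HS. Their median over all tested genes was 0.12, and single log2 fold changes are read beside it. It was 0.113 with a total without abundant genes. Under median ratio scaling, which sets the typical gene near 0 by design, it was -0.011. Whether the 0.12 comes from the scaling was not tested. Ratios of genes within a library do not depend on the scaling to a total. The mitochondrial share of the values was 2.75% to 2.8% in HS and 4.37% to 4.58% in drug-loaded MNs.

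To ask how drug-loaded MNs bore on this pathway, the 6 genes were compared between the groups. The 3 enzymes that carry farnesyl units to lanosterol, FDFT1, SQLE and LSS, were lower in both drug-loaded MNs libraries than in either HS library, at 0.664 to 0.756 times the HS mean. HMGCS1, INSIG1 and SC5D overlapped between the groups. None of the 6 passed an adjusted p of 0.05 in limma, against 0.0428% of all tested genes, so no single gene is called changed.

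LSS (ENSOCUG00000001938), which closes squalene epoxide into the sterol ring system, stood at 63.6 and 85.3 units in the HS libraries and at 50.8 and 48.1 units in the drug-loaded MNs libraries. Both drug-loaded MNs libraries lay below the lower HS library, and they lay close together. The means were 74.4 ± 15.4 and 49.4 ± 1.9 units (SD, n = 2 each), and limma gave a log2 fold change of -0.57 (SE 0.24, 95% interval -1.13 to -0.0028, adjusted p 0.575), the lowest of the 6 genes.

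FDFT1 (ENSOCUG00000005160), squalene synthase, commits farnesyl units to sterols. It was at 126 and 132 units in HS and at 88.9 and 95.7 units in drug-loaded MNs. The replicates of this gene lay closest together when both groups are considered, with the higher library at 1.05 times the lower in HS and 1.08 times in drug-loaded MNs, and the gap between the groups was wider than either. The means were 129 ± 4.02 and 92.3 ± 4.75 units (SD, n = 2 each). On the log2 scale FDFT1 differed by -0.48 (SE 0.21, 95% interval -0.97 to 0.013, limma adjusted p 0.596).

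SQLE (ENSOCUG00000015771), squalene epoxidase, is a rate-limiting enzyme of the later pathway. It was at 116 and 107 units in HS and at 71.8 and 97.1 units in drug-loaded MNs, so that the groups were separated, although by little between the nearest pair of libraries. The means were 112 ± 6.54 and 84.4 ± 17.9 units (SD, n = 2 each). SQLE differed by -0.41 on the log2 scale (SE 0.24, 95% interval -0.97 to 0.14, limma adjusted p 0.73). In the RefSeq annotation mOryCun1.1, SQLE overlaps a long non-coding RNA gene, and the strand setting of the counting was not given in the sources used here.

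HMGCS1 (ENSOCUG00000003569), the cytosolic HMG-CoA synthase that opens the mevalonate pathway, was at 128 and 182 units in HS and at 107 and 170 units in drug-loaded MNs. The libraries of one group differed more from each other than the group means did, with the higher at 1.42 times the lower in HS and 1.59 times in drug-loaded MNs. Its log2 fold change of -0.17 (SE 0.30, 95% interval -0.87 to 0.53, limma adjusted p 0.918) turned above 0 when HS replicate 2 (0.079) or drug-loaded MNs replicate 1 (0.16) was left out.

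INSIG1 (ENSOCUG00000013795), the sterol-sensing anchor, was at 76.8 and 110 units in HS and at 73.6 and 102 units in drug-loaded MNs. In each group the library with more HMGCS1 also had more INSIG1, and the log2 ratio of INSIG1 to HMGCS1 within a library was -0.74 and -0.72 in HS against -0.54 and -0.74 in drug-loaded MNs. The log2 fold change of INSIG1 was -0.082 (SE 0.28, 95% interval -0.73 to 0.56, limma adjusted p 0.963) and turned above 0 when HS replicate 2 (0.175) or drug-loaded MNs replicate 1 (0.15) was left out.

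SC5D (ENSOCUG00000011339), the sterol C5 desaturase, had low values, at 1.91 and 3.84 units in HS and at 2.58 and 3.49 units in drug-loaded MNs. The HS libraries enclosed both drug-loaded MNs libraries. The log2 fold change was 0.095 (SE 0.35, 95% interval -0.73 to 0.92, limma adjusted p 0.967), and other scalings turned it below 0, to -0.0046 with median ratios and -0.15 with quantile normalization. Without HS replicate 1 it was -0.27, and without drug-loaded MNs replicate 2 it was -0.068. Its 95% interval contained the log2 fold change of LSS.

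**Figure D1:**
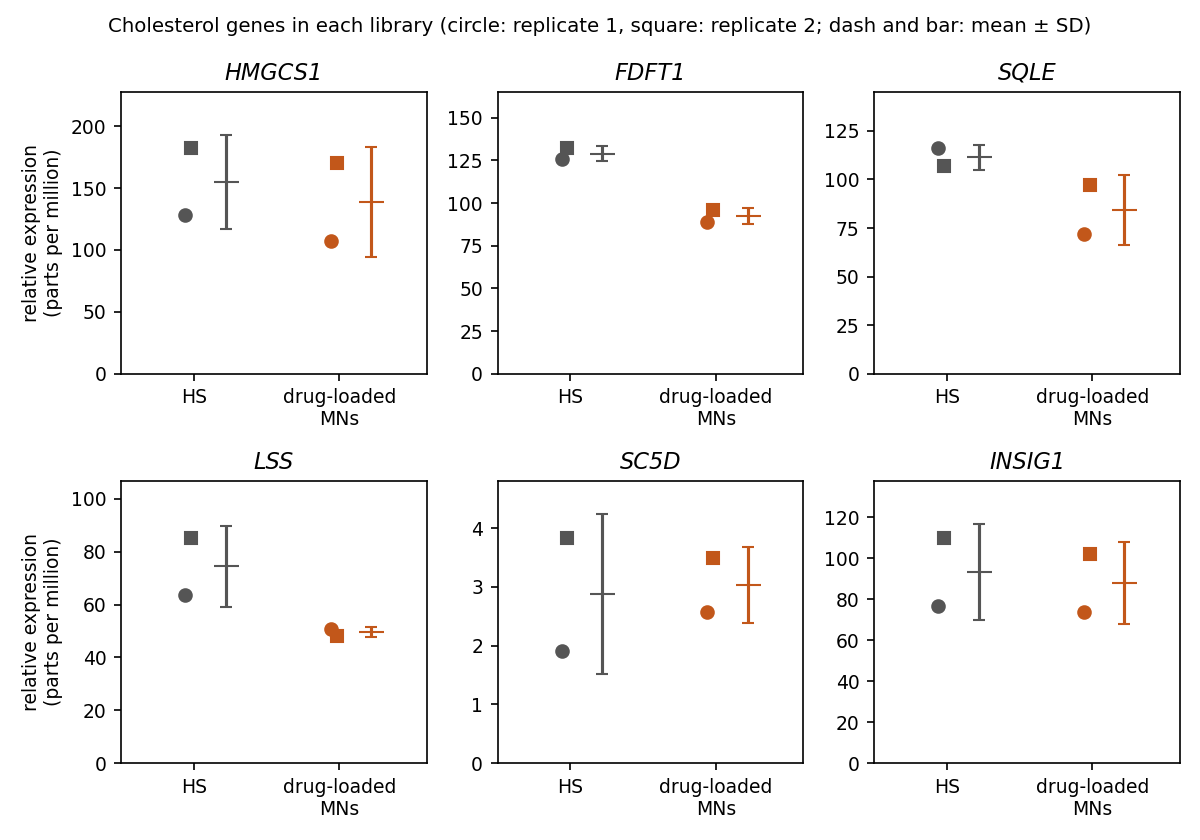
Relative expression (parts per 1000000 of the library total, linear axis from 0) of the 6 cholesterol genes in the 2 HS and 2 drug-loaded MNs libraries, with circles for replicate 1, squares for replicate 2, and dashes with bars for mean ± SD. FDFT1, SQLE and LSS were lower in both drug-loaded MNs libraries than in either HS library, whereas HMGCS1, SC5D and INSIG1 overlapped.

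The 6 genes were then set beside all tested genes. As they were chosen with earlier results of these data known, the shares are a description. The groups did not overlap, with drug-loaded MNs lower, in 3 of the 6 genes, against 11.2% of all tested genes. Under median ratio scaling and quantile normalization these were again FDFT1, LSS and SQLE, against 20.6% and 20.8% of all tested genes. A log2 fold change below 0 was found in 5 of the 6 genes (SC5D being above 0), against 35.4% of all tested genes. Under median ratio scaling SC5D was also below 0, at -0.0046. The median of all tested genes was -0.011 there, so more of them lay below 0. Under scaling to the total, an unadjusted limma p under 0.05 with a lower value was found in 1 of the 6 genes (LSS), against 1.39% of all tested genes. None of the 6 had one with a higher value, against 7.26%. The median log2 fold change of the 6 was -0.29, beside 0.12 for all tested genes, and it was -0.023 without drug-loaded MNs replicate 1. Only 2.67% of tested genes had a lower log2 fold change than LSS, 3.98% than FDFT1 and 5.38% than SQLE. For HMGCS1, INSIG1 and SC5D these shares were 17.1%, 25.9% and 46.9%.

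**Figure D2:**
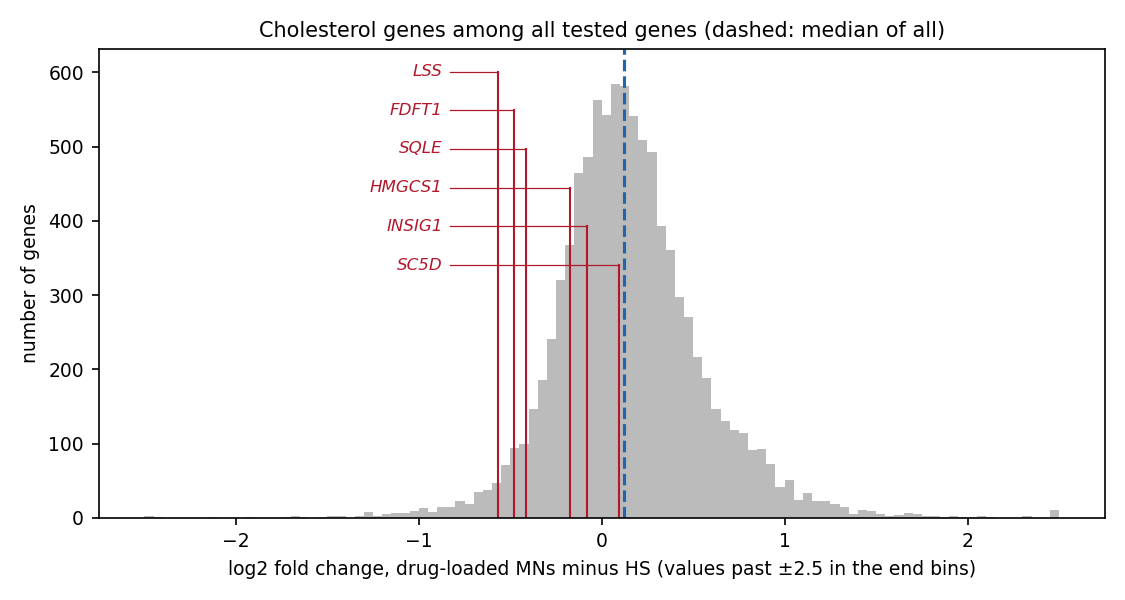
Number of genes by log2 fold change (drug-loaded MNs minus HS) for the 9348 tested genes, in grey, with the 6 cholesterol genes as red lines and the median of all genes dashed. LSS, FDFT1 and SQLE lie in the lower tail at -0.57, -0.48 and -0.41, and SC5D at 0.095 lies next to the median of 0.12.

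Pairing each drug-loaded MNs library with each HS library gave 4 ratios per gene, which share libraries and are a description. FDFT1 was lower in 4 of 4, with log2 ratios from -0.56 to -0.39. LSS and SQLE were also lower in 4 of 4, from -0.81 to -0.32 and from -0.69 to -0.14. HMGCS1 and INSIG1 were lower in 3 of 4, and SC5D in 2 of 4. The narrow range of FDFT1 was thus not shared by the other 5 genes.

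As the summed level shows the pathway as 1 value per library, the 6 genes were added up. They came to 512 and 619 units in HS and to 395 and 517 units in drug-loaded MNs. The groups overlapped, since drug-loaded MNs replicate 2 lay above HS replicate 1. The log2 sum differed by -0.32 (pooled SD 0.24, two-sided exact permutation p 0.667), where 2 libraries against 2 cannot give a p below 0.333. Genes with high values weigh more in such a sum, and the mean of the 6 log2 values, which weighs them alike, differed by -0.27 (two-sided exact permutation p 0.667).

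Keratinocyte markers overlapped between the groups, and none passed in limma. The 5 suprabasal markers of the list with a row (KRT1, KRT10, DSG1, DSC1 and SPINK5) summed to 37200 and 52800 units in HS and to 31600 and 41800 units in drug-loaded MNs, and none of the 5 was listed at 0. Of these, 4 had a log2 fold change below 0, against 35.4% of all tested genes. KRT10, the major keratin of differentiating keratinocytes, was at 31700 and 45300 units in HS and at 24600 and 35800 units in drug-loaded MNs, the same order of libraries as for HMGCS1. The 6 basal markers with a row summed to 8340 and 5770 units in HS and to 7730 and 4080 units in drug-loaded MNs, with 5 of 6 below 0 on the log2 scale. Within each group the basal sum was higher in replicate 1, whereas the suprabasal sum and the sum of the 6 cholesterol genes were higher in replicate 2.

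Within a library, the log2 ratio of the summed 6 genes to all 11 keratinocyte markers was -6.48 and -6.56 in HS against -6.64 and -6.47 in drug-loaded MNs. The groups overlapped, and the difference was -0.037 (pooled SD 0.095, two-sided exact permutation p 1). Relative to the suprabasal markers alone the difference was -0.032 (pooled SD 0.11). The log2 ratio to the basal markers alone spread far more, at -4.02 and -3.22 in HS against -4.29 and -2.98 in drug-loaded MNs, with a difference of -0.014 (pooled SD 0.77). Taken singly on the same ratio to all 11 markers, LSS was at -9.49 and -9.42 in HS and at -9.60 and -9.90 in drug-loaded MNs, still without overlap, whereas FDFT1 (-8.50 and -8.80 against -8.79 and -8.91) and SQLE (-8.61 and -9.10 against -9.10 and -8.88) overlapped. On this ratio the means of HMGCS1, INSIG1 and SC5D were higher in drug-loaded MNs, by 0.11, 0.20 and 0.43, with overlap. The share of all tested genes free of overlap on this ratio was not computed. The ratios to all 11 markers and to the suprabasal markers rest mainly on KRT10. Such ratios do not tell cell content from RNA per cell. The part of keratinocyte content in the lower values of FDFT1, SQLE and LSS was not tested.

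**Figure D3:**
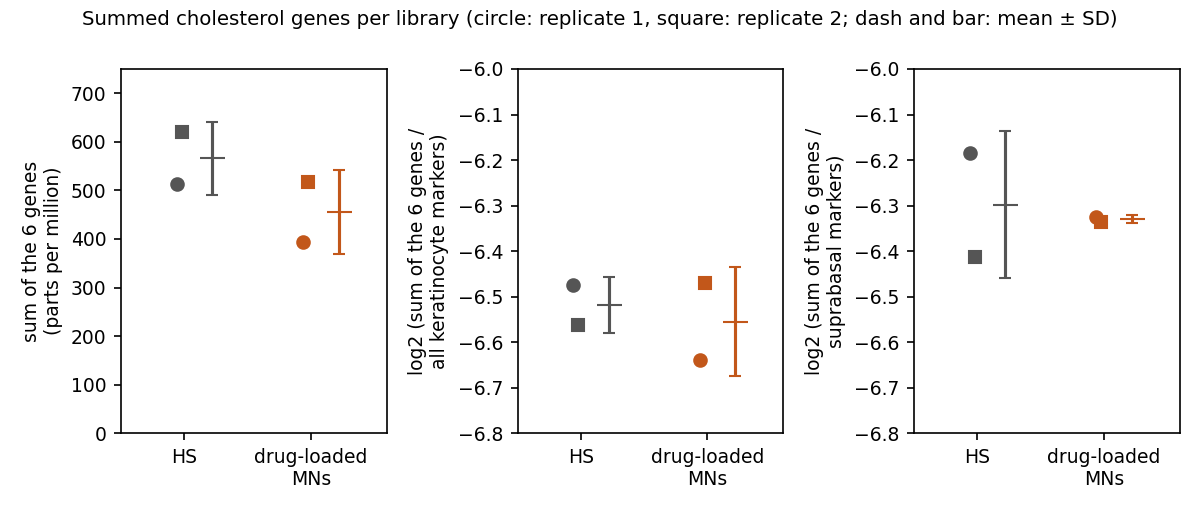
Summed relative expression of the 6 cholesterol genes per library (left, parts per 1000000, linear axis from 0), and its log2 ratio to all 11 keratinocyte markers (middle) and to the 5 suprabasal markers (right), on axes that do not start at 0, with circles for replicate 1, squares for replicate 2, and dashes with bars for mean ± SD. The sum was 512 and 619 in HS against 395 and 517 in drug-loaded MNs, and the ratio to all keratinocyte markers differed by -0.037.

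Markers of other cell types were also compared, and none of them passed the threshold. All 6 tested macrophage markers were higher in drug-loaded MNs without overlap, against 26.6% of all tested genes. Their list (7 genes with a row) summed to between 77.7 and 95.3 units in HS and to 194 and 195 units in drug-loaded MNs. MARCO was at 0 in HS replicate 1. All 5 fibroblast markers were likewise higher without overlap. They summed to between 22500 and 22900 units in HS and between 44500 and 48500 units in drug-loaded MNs. Of the 8 sebocyte markers with a row, AWAT1, AWAT2, DGAT2L6 and ELOVL3 had means below 1 unit and were not tested, and the list summed to between 113 and 135 units in HS and between 133 and 164 units in drug-loaded MNs. Of the 4 tested sebocyte markers, FAR2 (1.04) and PLIN2 (0.38) were higher without overlap, whereas MGST1 (-0.046) and PPARG (0.37) overlapped. Their median was 0.38. Median log2 fold changes of the endothelial, mural, mast cell, Schwann cell and cycling lists were 0.37, 0.55, 0.54, 0.68 and 0.39. No gene of the Schwann cell and cycling lists was free of overlap. The mural markers PDGFRB (0.60) and ACTA2 (0.71) and the mast cell marker KIT (0.77) were higher without overlap. The mast cell marker HDC (-0.49) was below 0 and overlapped. Of the endothelial markers, PECAM1 (0.54) and CDH5 (0.92) were higher without overlap, and VWF (-0.50) was lower without overlap. Immediate early genes of the dissociation response were below 0 on the log2 scale in 5 of 5 cases, against 35.4% of all tested genes. Their median log2 fold change was -0.18, with 0 past the threshold. The part of these cell types, and of the dissociation response, in the values of the cholesterol genes was not tested.

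The rest of the synthesis pathway was taken from lists of enzymes by step, also chosen with earlier results of these data known. Of 22 synthesis genes, 11 had a row, and 5 of those were among the 6 genes above. The other 6 included PMVK, GGPS1, CYP51A1, LBR and HSD17B7. Of the 6, 4 were below 0 on the log2 scale and 3 were lower without overlap, with a median of -0.18. None passed the threshold. Over all 11 genes, 8 were below 0, against 35.4% of all tested genes, and 6 were lower without overlap, against 11.2%. Under median ratio scaling 7 of the 11 were lower without overlap, against 20.6%. With quantile normalization it was 6, against 20.8%.

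CYP51A1, the lanosterol demethylase that acts directly after LSS, was at 142 and 119 units in HS and at 86.4 and 100 units in drug-loaded MNs (log2 fold change -0.47, SE 0.22, adjusted p 0.638 in limma). HSD17B7, a reductase of the C4 demethylation steps, was at 54.4 and 62.2 units in HS and at 38.1 and 43.6 units in drug-loaded MNs (log2 fold change -0.50, SE 0.23, adjusted p 0.619 in limma). These 2 enzymes lay next to FDFT1 and LSS in log2 fold change. PMVK, phosphomevalonate kinase, was at 28.4 and 35.3 units in HS and at 25.3 and 25.9 units in drug-loaded MNs (log2 fold change -0.30, limma adjusted p 0.821).

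The remaining synthesis genes overlapped. LBR, a sterol reductase that is also a receptor of the nuclear lamina, had a log2 fold change of 0.15, and GGPS1, which draws farnesyl units away to make geranylgeranyl groups, had one of 0.14. LBR was at -0.23 without HS replicate 1. Under scaling to the total, the synthesis genes with a lower value in both drug-loaded MNs libraries were PMVK, FDFT1, SQLE, LSS, CYP51A1 and HSD17B7.

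**Figure D4:**
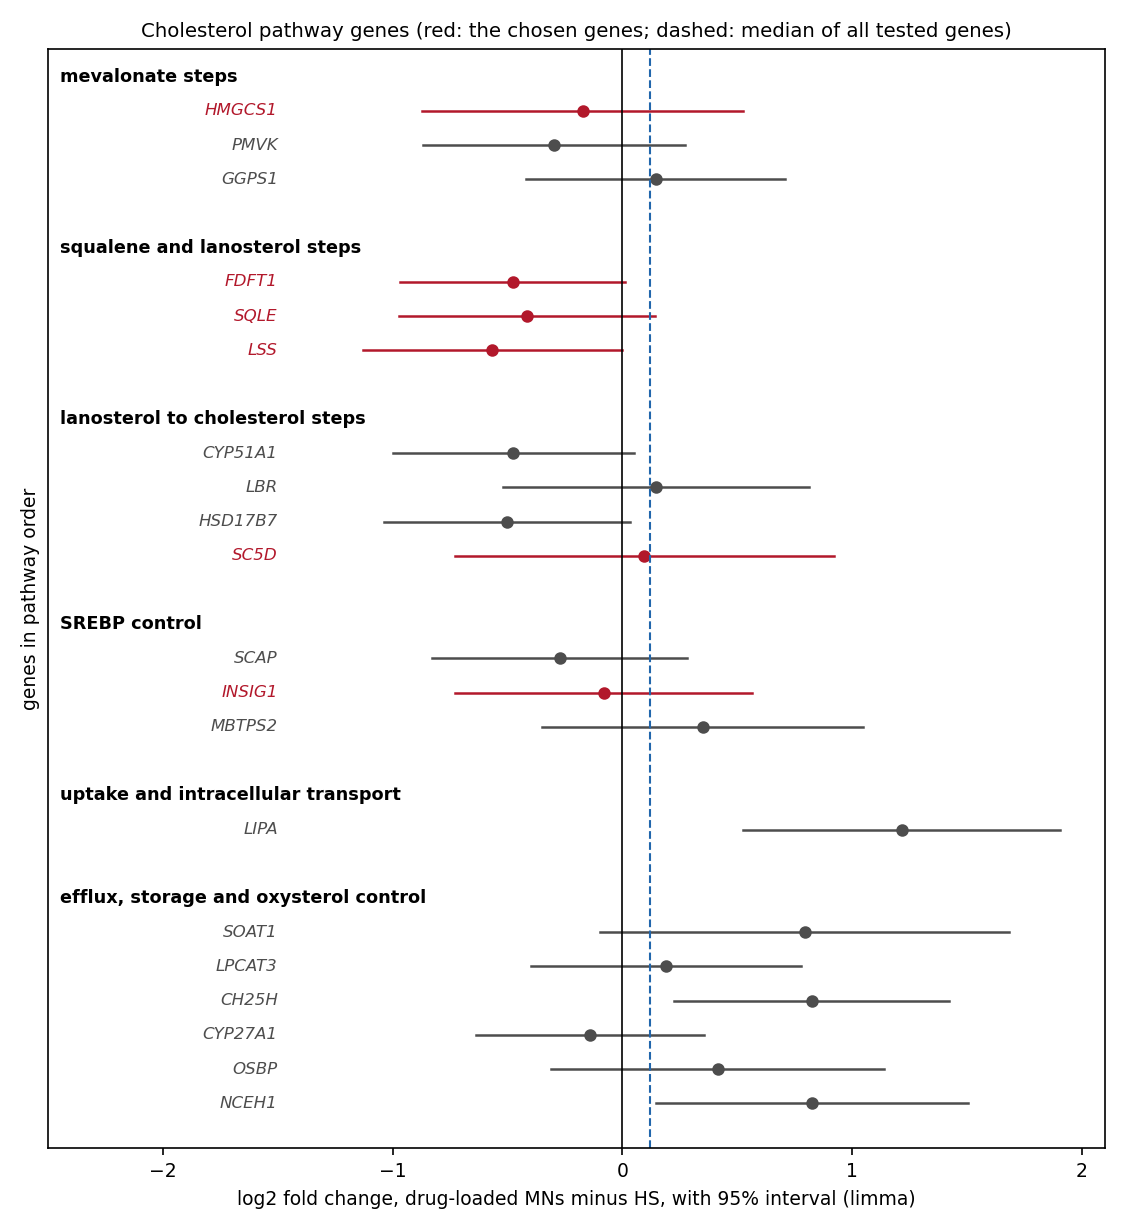
Log2 fold change (drug-loaded MNs minus HS) with its 95% interval from limma for the 20 cholesterol pathway genes named by value, grouped by list in pathway order, with the 6 chosen genes in red and the median of all tested genes dashed. LSS, FDFT1, SQLE, CYP51A1 and HSD17B7 lie between -0.57 and -0.41, and LIPA at 1.22, CH25H at 0.83 and NCEH1 at 0.83 lie at the other end.

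Among the 4 genes with a row that control SREBP, log2 fold changes ran from -0.27 in SCAP to 0.35 in MBTPS2, with a median of -0.049. SCAP, the sterol sensor that carries SREBP to the Golgi, was at 49.3 and 50.7 units in HS and at 46.5 and 36.5 units in drug-loaded MNs (limma adjusted p 0.834). MBTPS2, the protease of the second SREBP cut, was at 4.26 and 6.16 units in HS and at 7.33 and 6.35 units in drug-loaded MNs (limma adjusted p 0.834). INSIG2, the paralog of INSIG1, had a log2 fold change of -0.017 and overlapped. None of the 4 passed.

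Uptake and intracellular transport genes were taken next. Of 13 genes listed 7 had a row and 6 were tested. Of these, 4 were above 0 and 2 below, near the 35.4% of all tested genes that were below 0. The median was 0.13, close to that of all tested genes and at -0.012 under median ratio scaling. LIPA, the lysosomal acid lipase that frees cholesterol from the esters of ingested lipoproteins, was at 23.3 and 40.1 units in HS and at 75.2 and 69.9 units in drug-loaded MNs. Both drug-loaded MNs libraries were well above both HS libraries, and the log2 fold change was 1.22 (95% interval 0.53 to 1.91, SE 0.30, adjusted p 0.316 in limma).

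Genes of efflux, storage and oxysterol control were above 0 in 8 of 9 cases and below 0 in 1. Of all tested genes, 35.4% were below 0. The median log2 fold change of the list was 0.41, and 5 of the 9 were higher without overlap, against 26.6% of all tested genes. Under median ratio scaling the median was 0.28, and 18.4% of all tested genes were higher without overlap. The 5 of 9 was not counted again under that scaling, so it cannot be set against the 18.4%. CH25H, which makes 25-hydroxycholesterol, an oxysterol that holds back SREBP, was at 25.7 and 24.9 units in HS and at 53.7 and 38.7 units in drug-loaded MNs (log2 fold change 0.83, SE 0.26, limma adjusted p 0.411). NCEH1, a cholesteryl ester hydrolase, was at 5.27 and 3.95 units in HS and at 8.12 and 9.7 units in drug-loaded MNs (log2 fold change 0.83, SE 0.29, limma adjusted p 0.458).

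SOAT1, which esterifies cholesterol for storage, was at 14.9 and 10.3 units in HS and at 31.9 and 15.4 units in drug-loaded MNs (log2 fold change 0.79, adjusted p 0.648 in limma), and the log2 fold change was 0.29 without drug-loaded MNs replicate 1. OSBP, a sterol carrier between membranes, was at 19.8 and 35.3 units in HS and at 35.4 and 35.9 units in drug-loaded MNs, so the groups were parted by very little. LPCAT3, a phospholipid remodelling enzyme under LXR control, was at 17.6 and 15.5 units against 20 and 18 units. CYP27A1, the sterol 27-hydroxylase, was the gene of this list below 0, at 98.2 and 89.6 units in HS and at 85.5 and 84.5 units in drug-loaded MNs (log2 fold change -0.14). None of the 9 passed. The macrophage and fibroblast marker sums given above moved in the same direction as LIPA, CH25H, NCEH1 and SOAT1. So did the list medians of several other cell types, and the part of any cell type in those values was not tested.

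The dependence of the 6 genes on single libraries differed between them. With each library left out in turn, FDFT1 ranged from -0.53 to -0.43 on the log2 scale, SQLE from -0.63 to -0.20 and LSS from -0.78 to -0.36, all below 0. FDFT1, SQLE and LSS were below 0 in all 14 alternatives tried. HMGCS1 and INSIG1 were below 0 in 12 of 14 each, and SC5D was above 0 in 9 of 13. None of the 6 passed the threshold in any of them, with the replicate number as a block included.

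**Figure D5:**
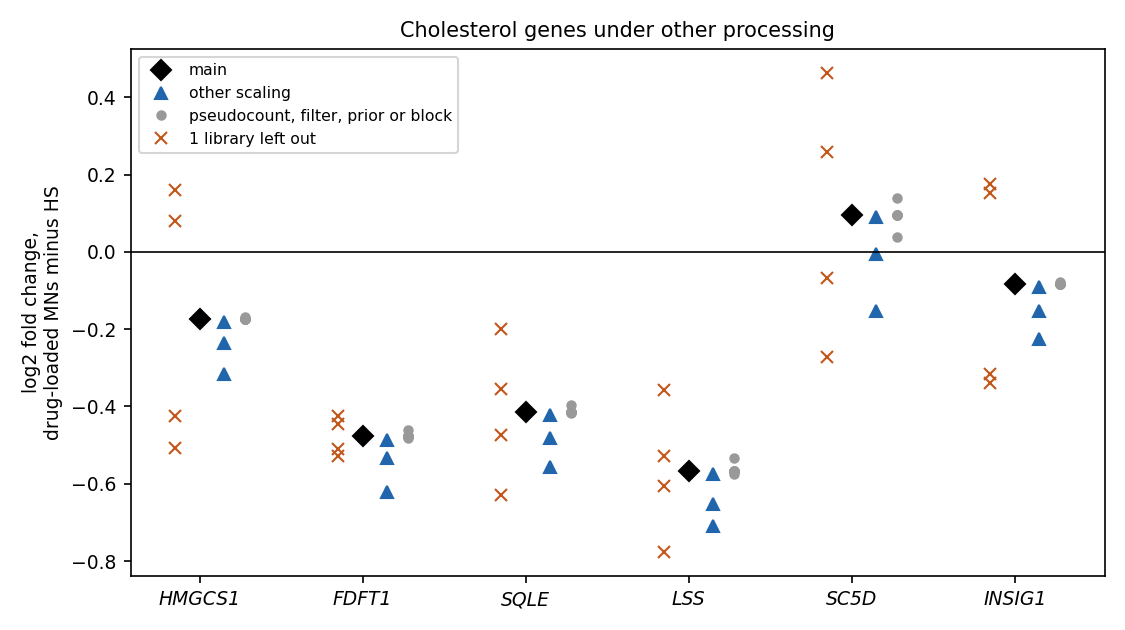
Log2 fold change (drug-loaded MNs minus HS) of the 6 cholesterol genes as reported (diamonds), under other scalings (triangles), with 1 library left out (crosses) and under other pseudocounts, filters, priors or a replicate block (dots). FDFT1, SQLE and LSS, whose groups did not overlap and which only other scalings could have turned, stayed below 0. FDFT1 lay within -0.62 to -0.43, whereas HMGCS1, SC5D and INSIG1 lay on both sides of 0.

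Genes with a similar pattern over the 4 libraries were looked for among 5450 genes with a symbol and a mean of at least 10 units. Likeness was the root mean square difference of log2 values, centred on each gene's mean, from the mean profile of the 6 genes, which was -0.041 and 0.31 in HS against -0.30 and 0.025 in drug-loaded MNs. The 5 closest genes were ZCCHC2, MAPKAPK2, ABHD5, RETREG1 and MAPKAPK3, with differences from 0.0283 to 0.0302. ABHD5, a co-activator of triglyceride lipase, was for example at 43.9 and 55.3 units in HS and at 38 and 46.7 units in drug-loaded MNs, a pattern in which the groups overlapped. The 6 genes themselves lay farther from their own mean profile, from 0.122 in INSIG1 to 0.227 in SC5D, so the mean profile stood for none of them closely. With 4 libraries, such likeness is a description.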

How the data were processed

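Libraries of ear scar epidermis and dermis were made with the 10x Genomics 3' method. Per the labels, the authors used Cell Ranger 2.1.1, and the processing notes name the build mm10, although the deposited identifiers are those of rabbit genes. Seurat and a correction for technical differences are named in the methods of the study, and whether the values had passed through the latter was not stated. The deposited signal held 1 value per gene and library, named FPKM but with a total of 10000 in each column, and gene length correction could not be shown.

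Depth was unknown. Of 885 to 1083 low values per library (up to 20 times the smallest), 18.6% to 21.7% lay within 0.1 of a whole multiple, so reads were not recovered, and no counting error could be given.

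Values were rescaled to a total of 1000000, genes with a mean of at least 1 were kept, and log2(value + 1), which understates changes of low genes, was fitted with limma 3.58.1 (R 4.3.3) with a variance trend and no covariate. P-values were two-sided, Benjamini-Hochberg adjusted over all 9348 genes, with a threshold of 0.05. The fit was tested on simulated data with 50 changed genes per size. A log2 change of 1 was recovered in 16% of them, and changes of 2, 3 and 4 in 88%, 100% and 98%, with 8 false calls. These sizes were simulated together, and many large changes loosen the adjustment. The shares may thus be too high for the real data, in which 4 genes passed. Changes below 1 were not simulated. The chosen cholesterol genes all had smaller log2 fold changes, the farthest from 0 being -0.57 in LSS. Their failure to pass the threshold therefore cannot decide whether they changed. The alternatives were 3 scalings, pseudocounts of 0.1 and 5, no filter on low values, a minimum mean of 5, robust eBayes, eBayes with a constant prior, a block for the replicate number, and leaving out each library.

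The members, the 6 pathway lists and the 11 marker lists were chosen with earlier results of these data known, and no set test was run. Beside the members, pathway genes were named if highest or lowest of their list, without overlap between groups, or at an unadjusted p under 0.05, and INSIG2 was added after its values were seen. Some genes of the lists enter the counts but are not reported here by name. The planned search of promoter motifs was not run, and no sequences were used here.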

Additional observations from a re-analysis of the deposited data

How the results depend on the processing

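In place of 4 genes past the threshold there were 0 with a pseudocount of 5, with no filter, with a total without abundant genes, with quantile normalization and under median ratio scaling, 1 without trend, 241 with the replicate number as a block, and 0 to 75 with 1 library left out (0 without HS replicate 1, 48 without drug-loaded MNs replicate 1, 75 without drug-loaded MNs replicate 2), where the variance of a lone library is assumed to equal that of the other group. An unadjusted p under 0.05 was found for 809 genes, 83.9% of them higher, and for 771 under median ratio scaling, 64.1% of them higher. The block shares only a number: deviations of same-numbered libraries correlated at 0.222 across genes, and 2 pairs cannot establish a pairing. Under it LIPA (1.22) passed, with a limma adjusted p of 0.00632 (0.00632 to 0.484 over the alternatives), and none of the other pathway genes recomputed under the alternatives did.

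Leaving out 1 library, the list medians lay from -0.52 to -0.023 for the members, from -0.42 to 0.11 for mevalonate steps, from -0.53 to -0.43 for squalene and lanosterol steps, from -0.27 to -0.048 for lanosterol to cholesterol steps, from -0.27 to 0.20 for SREBP control, from 0.062 to 0.25 for uptake and from 0.28 to 0.55 for efflux genes. Under median ratio scaling they were -0.62 for squalene and lanosterol steps, -0.20 for lanosterol to cholesterol steps, -0.012 for uptake and 0.28 for efflux genes. Efflux genes were at 0.29 under quantile normalization and 0.36 with a pseudocount of 5, and lanosterol to cholesterol steps at -0.27 with a minimum mean of 5, which leaves SC5D out. The log2 sum of the members ranged from -0.51 to -0.12, and its ratio to keratinocyte markers from -0.12 to 0.048. Directions turned for SC5D under median ratio (-0.0046) and quantile scaling (-0.15), and with 1 library left out for HMGCS1 (-0.51 to 0.16), INSIG1 (-0.34 to 0.175), SC5D (-0.27 to 0.46) and LBR (-0.23 to 0.52). The cause was not tested. Of 279 values of named genes, 269 kept direction and side of the threshold.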
